A study of Mus musculus with 22 samples.

Results

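Broad H3K4me2 domains were examined in BV2 cells, an immortalised mouse microglial line. A domain was a peak of 5000 bp or wider in the H3K4me2 library of cells carrying the empty vector pCDH, provided that at least 1 bp of it overlapped a peak in the mutant-fragment library and in the wild-type-fragment library. This rule took 1111 of the 39503 H3K4me2 peaks of that library, or 2.81%, and these peaks held 10.9% of its peak length, 7.36 Mb in all. Widths ran up to 23375 bp, with a median of 6067 bp, and 49 domains were 10000 bp or wider. The narrowest peaks inside the limit measured 5000, 5004, 5005, 5006 and 5008 bp, and the widest peaks just outside measured 4991, 4992, 4994, 4995 and 4998 bp, so the limit cuts through a continuous range of widths. Since the empty-vector widths chose the domains, those widths are given as a description.

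The cells had been transduced with lentivirus made from the pCDH vector, in which a CMV promoter drives the insert. Mutant-fragment cells (Nmu) received the N terminus of human huntingtin carrying 128 glutamines, wild-type-fragment cells (Nwt) the N terminus carrying 15 glutamines, and control cells the empty vector. Mouse huntingtin (Htt) was transcribed in all 3 lines at 3.80 and 3.79 RPKM (mutant fragment, 24 h and then the second RNA time), 3.62 and 2.94 RPKM (wild-type fragment) and 3.97 and 2.86 RPKM (empty vector); the human transgene is not in the table. Chromatin immunoprecipitation mapped H3K4me2 and 3 transcription factors (PU.1, C/EBPβ and C/EBPα) in 1 library per construct, labelled 24 h. Poly(A) RNA was sequenced in 2 libraries per construct, 1 of them at 24 h. For the other the table's header states 6 h but the labels 48 h, so it is called the second time; which time came first is unknown. Microglia sorted from adult brain as CD11b+ and CD45 low, and macrophages grown from bone marrow, gave 1 RNA library each from mutant (Q175/175) and wild-type (Q7/7) mice. Nothing in the labels shows that libraries were separate cultures, so p-values measure the spread between these libraries, which may be technical.

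H3K4me2, the dimethyl mark on lysine 4 of histone H3, lies over promoters and enhancers, including those that are primed but not yet transcribed. In macrophages and microglia, PU.1 (encoded by Spi1) and the C/EBP factors bind together at many such elements, and PU.1 recognises purine-rich DNA around a GGAA core. Long stretches of lysine 4 methylation are known from genes that specify the identity of a cell type.

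Promoters of 3 genes that start in a domain are shown. Each has a single annotated promoter: Irf5 and Lyl1 encode myeloid transcription factors, and Malat1 lies in the widest domain. Sequences are from RefSeq on GRCm38.p6, a later build than that of the peaks (mm9), and span 250 bases before to 50 bases after the start, 5′ to 3′ on the gene's own strand. Capitals mark GGAAGT or GAGGAA on the printed strand, letters related to the PU.1 motif. GAGGAA and the 3 promoters were chosen after the sequences had been seen. Klf2, another myeloid factor gene in a domain with a single annotated promoter, was left out by name. Its promoter held 0 matches to GGAAGT and 0 to GAGGAA. The 3 promoters shown therefore do not tell how common such matches are. No genome of the peaks' build was used, so no sequence of a whole domain is given.
Irf5 (chr6:29526375-29526674, plus strand): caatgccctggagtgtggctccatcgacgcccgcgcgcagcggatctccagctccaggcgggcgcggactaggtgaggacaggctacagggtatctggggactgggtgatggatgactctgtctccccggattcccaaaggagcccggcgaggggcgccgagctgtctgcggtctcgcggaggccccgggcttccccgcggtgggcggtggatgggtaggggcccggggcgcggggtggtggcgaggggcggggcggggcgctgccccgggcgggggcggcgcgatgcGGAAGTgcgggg
Lyl1 (chr8:84701207-84701506, plus strand): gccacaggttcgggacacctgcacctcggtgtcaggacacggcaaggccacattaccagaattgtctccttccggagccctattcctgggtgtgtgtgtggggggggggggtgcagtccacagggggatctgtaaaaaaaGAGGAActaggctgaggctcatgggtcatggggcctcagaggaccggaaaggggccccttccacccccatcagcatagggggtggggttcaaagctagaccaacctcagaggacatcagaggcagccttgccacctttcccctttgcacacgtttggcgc
Malat1 (chr19:5802623-5802922, minus strand): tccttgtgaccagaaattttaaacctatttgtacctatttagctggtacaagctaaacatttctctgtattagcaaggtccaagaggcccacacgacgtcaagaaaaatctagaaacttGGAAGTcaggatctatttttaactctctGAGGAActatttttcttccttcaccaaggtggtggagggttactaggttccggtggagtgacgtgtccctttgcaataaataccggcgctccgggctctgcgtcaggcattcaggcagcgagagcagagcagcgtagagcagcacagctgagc

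The promoters differed in base composition. Irf5 had 35 CpG dinucleotides in 300 bases and 74.7% G and C, Lyl1 had 7 and 60.0%, and Malat1 had 10 and 47.0%. At the Lyl1 start on mm9 the nearest PU.1 peak centre lay at -63, -57 and -85 bp (negative values are upstream) in mutant-fragment, wild-type-fragment and empty-vector cells, so a PU.1 peak stood close to this start in all 3 libraries. At Malat1 the nearest PU.1 centre lay at -377, -392 and -397 bp, and at Irf5 at -2132, -2183 and -2142 bp. The motif letters in the Irf5 promoter are therefore not beside its nearest PU.1 peak.

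Six-letter matches of this kind are common. Of 766 genes that start in a domain, 576 matched the RefSeq table, with 840 promoters. These are called domain promoters here. They include every annotated promoter of each gene, and some lie far outside the domain, as for Runx1 and Mitf. GGAAGT, searched on both strands, stood in 25.2% of domain promoters and in 23.8% of all 32851 promoters, and GAGGAA in 29.1% and 28.3%. The joined form GAGGAAGT, which contains both, was in 3.93% of domain promoters and 3.20% of all. Other letters searched were TTGCNNAA, a C/EBP form (11.7% against 10.8%), TGANTCA, an AP-1 form (5.24% against 7.81%), and CACGTG, an E-box (8.21% against 7.15%). Domain promoters held a median of 18 CpG dinucleotides, against 7 in all promoters and 19 in promoters of genes that start in a narrower H3K4me2 peak. A match is a description of the letters and not evidence of a bound site.

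Most of the domain length was also marked in the other constructs, but often not as a single wide peak. H3K4me2 peaks covered a median of 90.5% of each domain in mutant-fragment cells and 92.0% in wild-type-fragment cells, and 86.9% and 89.4% of the summed length. Narrower peaks of the empty-vector library were covered over 78.2% and 80.1% of their summed length. A peak of 5000 bp or wider overlapped 654 domains (58.9%) in mutant-fragment cells and 704 (63.4%) in wild-type-fragment cells, and 527 domains (47.4%) passed that width in all 3 constructs. Where no such peak overlapped, the domain held only peaks under that width. Of all 1111 domains, 685 were overlapped by 1 peak in mutant-fragment cells, 361 by 2 and 65 by 3 or more. In wild-type-fragment cells these counts were 747, 308 and 56. At the low end, 10% of domains were covered over less than 67.9% with the mutant fragment and less than 74.2% with the wild-type fragment.

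The choice of library bears on these counts. The same rule applied to the mutant-fragment library gave 887 broad peaks, and applied to the wild-type-fragment library it gave 865. Of the 887 chosen by the mutant-fragment widths, 66.7% overlapped a peak of 5000 bp or wider with the wild-type fragment and 74.1% with the empty vector. A peak chosen for its width in 1 library was thus commonly narrower in another, whichever library chose. With 1 library per construct, a construct and its library cannot be told apart. The share of tags in H3K4me2 peaks also differed, at 54.8% with the mutant fragment, 48.5% with the wild-type fragment and 57.6% with the empty vector, and its part in the width counts was not tested.

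**Figure D1:**
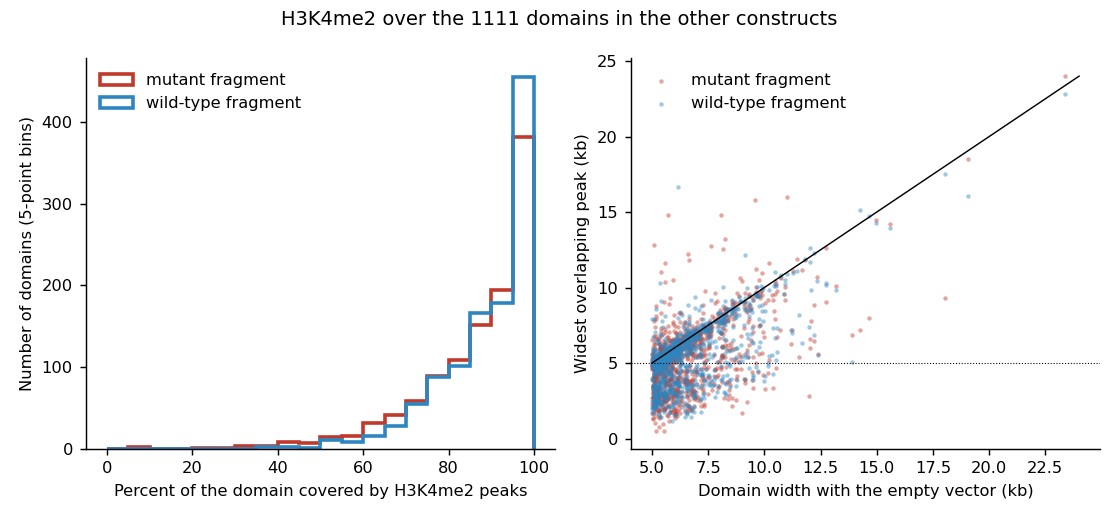
Left, number of domains (vertical axis) by the percent of their length covered by H3K4me2 peaks (horizontal axis, 5-point bins) in mutant-fragment and wild-type-fragment cells. Right, width of the widest overlapping peak in those cells (kb) against the domain width with the empty vector (kb), 1 point per domain and construct, with the line of equal width and a dotted line at 5 kb. Most domains are covered almost whole, with medians of 90.5% and 92.0%, while 654 and 704 of 1111 have a peak above the dotted line.

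Between the 2 fragments the widths were close. The widest overlapping peak was wider with the mutant fragment in 504 domains and wider with the wild-type fragment in 607, with a median log2 ratio of -0.022. It was at least 2-fold wider with the mutant fragment in 34 domains and at least 2-fold narrower in 78. Among domains much wider with the mutant fragment, named here after their widths were seen, was a stretch on chromosome 1 near Mapkapk2, the gene of a kinase downstream of p38: domains of 5709 and 8081 bp with the empty vector (chr1:132978777-132984485 and chr1:132985611-132993691, mm9) lay under a single 14804 bp peak with the mutant fragment. The domain 343 bp from the start of Sirpa, an inhibitory receptor of phagocytes, had an overlapping peak of 15786 bp with the mutant fragment, 9587 bp with the wild-type fragment and a width of 9590 bp with the empty vector (chr2:129419274-129428863). These single-library widths have no replicate check.

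The domains least covered with the mutant fragment lay at the other extreme. A domain 4159 bp from the start of Cyb561 (chr11:105809620-105815163) was covered over 9.04% with the mutant fragment and 43.3% with the wild-type fragment, and one 9025 bp from Zfp217 (chr2:169942517-169947695) over 9.67% and 81.3%. Both held only a 501 bp peak with the mutant fragment. The domain at Kcnn4, the gene of a calcium-activated potassium channel (chr7:25154610-25159911), was covered over 29.4% with the mutant fragment and over 73.3% with the wild-type fragment.

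Most of the widest domains held a gene start. The widest, 23375 bp (chr19:5796289-5819663, mm9), held the start of Malat1, a nuclear noncoding RNA, and its neighbour of 19075 bp (chr19:5833436-5852510) held the start of Neat1, the RNA scaffold of paraspeckles. Peaks over them measured 23998 and 18533 bp with the mutant fragment and 22804 and 16063 bp with the wild-type fragment, so both stayed broad. The domain of 18032 bp at Kif21b (chr1:138022403-138040434), the gene of a kinesin motor, and that of 14641 bp at Bmf (chr2:118361981-118376621), a BH3-only promoter of apoptosis, had widest peaks of 9296 and 7977 bp with the mutant fragment, against 17528 and 14772 bp with the wild-type fragment. At Ctsd, which encodes the lysosomal protease cathepsin D, a domain of 13899 bp (chr7:149569268-149583166) was covered by 2 peaks with the mutant fragment and 4 with the wild-type fragment, the widest of 6831 and 5061 bp. Other genes in the 12 widest domains were Ptgir, Plec, Cirbp, Zbtb7b and Plekho1, and 2 of the 12 held no gene start.

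Nearly every domain held a PU.1 or a C/EBPβ peak. PU.1 peaks overlapped 92.3% of domains with the mutant fragment (exact binomial 95% interval 90.6 to 93.8), 89.5% with the wild-type fragment (87.5 to 91.2) and 95.0% with the empty vector (93.6 to 96.2). C/EBPβ was in 90.2% (88.3 to 91.9), 95.9% (94.6 to 97.0) and 80.8% (78.4 to 83.1), and C/EBPα in 45.3% (42.3 to 48.3), 70.5% (67.7 to 73.1) and 49.5% (46.5 to 52.5). Intervals cover counting error only. The order of constructs in the domains followed the size of the libraries' peak lists: PU.1 had 64744, 53835 and 71846 peaks, C/EBPα 9117, 19732 and 11645, and C/EBPβ 47893, 69522 and 35964. Total tags also differed, at 14.7 M, 24.1 M and 16.3 M for C/EBPα (M, mega), 13.6 M, 17.7 M and 17.5 M for C/EBPβ, and 5.36 M, 6.15 M and 7.30 M for PU.1 (mutant fragment, wild-type fragment, empty vector). The order of tags was that of the peak counts for C/EBPα but not for C/EBPβ or PU.1. The share of tags in peaks differed too, at 25.8%, 17.4% and 26.9% for PU.1, 24.3%, 23.0% and 8.09% for C/EBPβ, and 3.88%, 4.10% and 2.38% for C/EBPα. Its order was that of the peak counts for PU.1, and for C/EBPβ the empty vector was lowest in both. The part of depth and of the share of tags in peaks in these differences was not tested.

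A wide region has more room for a site, and per length, as counted here, the domains were mostly not richer in sites than narrower peaks. PU.1 sites numbered 3.17, 2.82 and 3.45 per 10 kb of domain with the mutant fragment, the wild-type fragment and the empty vector, against 3.62, 3.23 and 4.03 per 10 kb of narrower peak. For C/EBPβ the density was 3.14, 3.59 and 2.29 per 10 kb of domain, against 3.67, 4.70 and 2.72 in narrower peaks. C/EBPα stood at 0.974, 1.80 and 1.07 per 10 kb of domain, against 0.95, 1.90 and 1.14. Only C/EBPα with the mutant fragment was denser in domains by this count, by less than its counting interval (0.904 to 1.05). A site that overlapped a region by 1 bp was counted, which raises the density of narrow regions more than that of wide ones. The densities were not adjusted for this, so small differences between domains and narrower peaks are not decided.

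**Figure D2:**
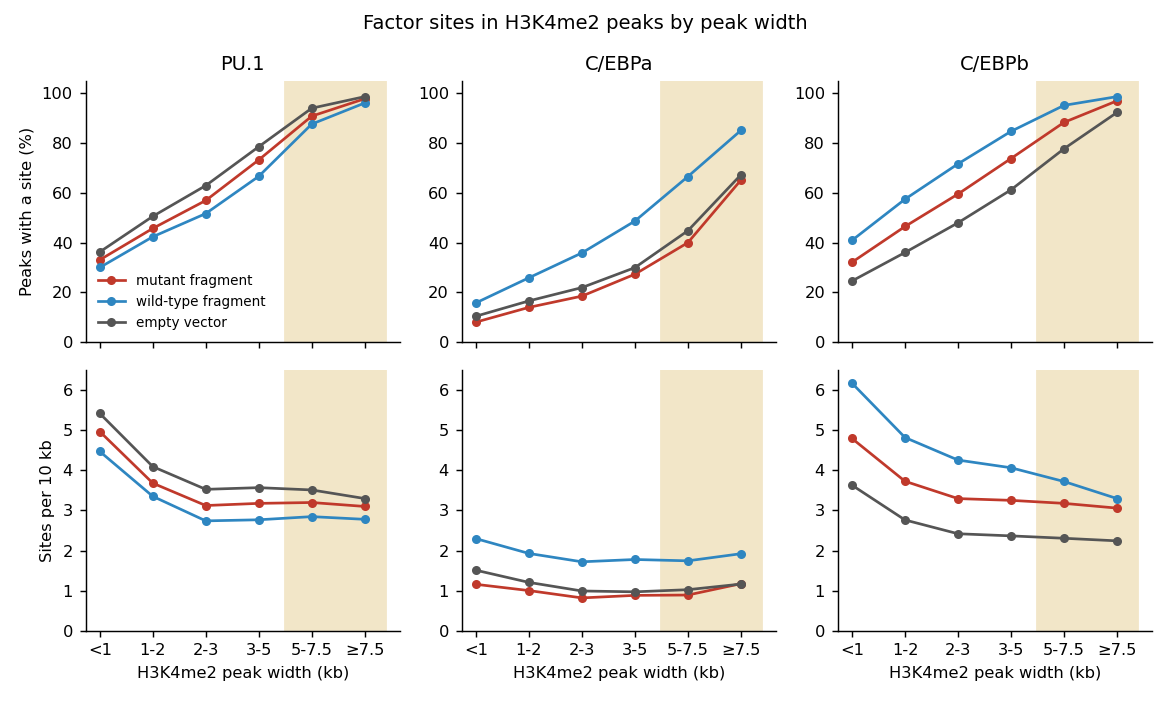
Share of H3K4me2 peaks with at least 1 site (%, top) and sites per 10 kb (bottom) for PU.1, C/EBPα and C/EBPβ, by width of the empty-vector H3K4me2 peak (kb), with 1 line per construct and the broad domains shaded. The share with a site climbs with width in every library, to 97.9% for PU.1 with the mutant fragment in domains of 7.5 kb or wider, while the density is highest in peaks under 1 kb for all factors except C/EBPα with the mutant fragment, where the widest class is level with them. Counting sites by 1 bp of overlap raises the density of narrow peaks most, and this was not adjusted for.

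Combinations showed the same dependence on the C/EBPα library. All 3 factors had a site in 479 domains (43.1%) with the mutant fragment, 716 (64.4%) with the wild-type fragment and 525 (47.3%) with the empty vector. PU.1 and C/EBPβ without C/EBPα were in 456, 239 and 336 domains, PU.1 alone in 88, 36 and 187, and none of the 3 in 18, 4 and 18. Of the PU.1 sites found in domains with the mutant fragment, 74.9% were also called with the wild-type fragment and 83.7% with the empty vector, close to the 74.7% and 84.1% in narrower peaks. The densest domain for PU.1 was that at Bmf, with 8, 6 and 8 PU.1 sites in mutant-fragment, wild-type-fragment and empty-vector cells. The Malat1 domain held 12, 10 and 7 C/EBPβ sites.

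Gene starts lay in 633 domains (57.0%), against 15.0% of narrower peaks. A wide region has more room for a start too: the median width was 6067 bp in domains and 1318 bp in all H3K4me2 peaks of that library. The 2 shares were not adjusted for width. Of the 633 domains 514 held a single gene symbol, 103 held 2 and 16 held 3 or more. Domains with a single gene reached farther into the gene than ahead of it, with a median of 2044 bp upstream of the start and 4147 bp downstream, and 373 of the 514 (72.6%) reached farther downstream. Among the 478 domains without a start, 291 overlapped a transcript and 187 lay outside every transcript, with a median distance of 11007 bp from their edge to the nearest start; 93 of the 478 had a start within 1000 bp of their edge. Domains without a start had slightly more PU.1 sites than domains with a start, 3.36, 3.10 and 3.60 per 10 kb against 3.03, 2.63 and 3.33 (mutant fragment, wild-type fragment, empty vector). In all, 766 of the 23953 gene symbols (3.20%) start in a domain, of which 694 are protein-coding in the RefSeq table.

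Starts inside domains were bound by PU.1 about as often as starts inside narrower peaks. A PU.1 site lay within 250 bp of the start of 22.2%, 19.0% and 24.9% of 736 domain genes with the mutant fragment, the wild-type fragment and the empty vector, against 20.2%, 15.1% and 24.2% of genes in narrower peaks. C/EBPα was within that distance more often, at 9.38%, 21.2% and 9.65% of domain genes against 5.93%, 17.2% and 6.04%. C/EBPβ was within that distance of 29.9%, 34.8% and 21.9% of domain genes, against 29.7%, 40.0% and 19.7%, and so less often in domains with the wild-type fragment. Most of these domain genes thus had no PU.1 site within 250 bp of their start. The share of PU.1 sites that lie near a start was not counted.

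Regulators of the myeloid lineage were frequent among domain genes. Of 38 listed myeloid transcription factors, 10 start in a domain (26.3%, against 3.20% of all gene symbols), among them Irf8 and Irf5, interferon regulatory factors, Runx1, Maf, Elf1, Klf2, Mitf, Lyl1 and Zeb2. Mitf, a regulator of lysosomal and pigment genes, does so through a transcript whose start (domain chr6:97754281-97759798) differs from that of its most abundant one. The genes of the mapped factors, Spi1, Cebpa and Cebpb, do not start in a domain, although Spi1 and Cebpa start in a narrower peak. AP-1 and immediate-early genes had 6 of 29 members in domains (20.7%), myeloid surface receptors 7 of 38 (18.4%, Itgax, Fcgr2b, Fcer1g, Tyrobp, Tlr2, Tlr4 and Tlr7) and cytoskeleton and adhesion genes 6 of 24 (25.0%, among them Vim, Lcp1 and Coro1a).

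Counted over all listed members, other lists had lower shares, 6 of them still above the 3.20% of all gene symbols. Homeostatic microglia genes had 2 of 15 members in domains (13.3%, among them Cst3), cytosolic ribosomal protein genes 4 of 34 (11.8%), chromatin regulators 3 of 28 (10.7%) and mitochondrial respiratory chain genes 2 of 26 (7.69%). NF-kB genes had 1 of 18 (5.56%, Tnfaip3) and cytokines 1 of 25 (4.00%, Spp1). Many gene symbols had too little RNA in BV2 cells to be tested between constructs, and of the 10350 genes tested 6.69% start in a domain. Among tested members the share was 5.88% for NF-kB genes and for cytokines, below that value. It was 7.69% for mitochondrial genes, close to it, 10.7% for chromatin regulators and 11.8% for ribosomal protein genes. Myeloid surface receptors had 21.9%, AP-1 and immediate-early genes 25.0%, cytoskeleton and adhesion genes 25.0% and myeloid transcription factors 28.6%. Homeostatic microglia genes had the highest share on this base, 33.3%, with only 6 members tested. None of 25 cell cycle genes starts in a domain, nor any of the neuronal, astrocyte, oligodendrocyte, endothelial, fibroblast, lymphocyte, granulocyte or developmental homeobox genes listed. These counts describe the lists and carry no test.

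The myeloid factor genes differed in how their domains held across constructs. At Irf8 (chr8:123259100-123269575, 10476 bp), needed for the monocyte and microglial lineage, and at Irf5 (chr6:29472436-29480755, 8320 bp) the domain was a single peak with each fragment, of 9573 and 10221 bp at Irf8 and of 8593 and 8441 bp at Irf5 (mutant, then wild-type fragment). Klf2 (chr8:74841144-74848472, 7329 bp), which restrains myeloid activation, had 3 peaks with the mutant fragment and 2 with the wild-type fragment, the widest of 2316 and 3857 bp. Lyl1 (chr8:87223167-87233326, 10160 bp) kept a peak of 9146 bp with the mutant fragment and one of 5009 bp with the wild-type fragment. Broken and intact domains thus both occurred among these factors.

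RNA levels are in RPKM, which divides reads by transcript length and sequencing depth. The identity of the cells was checked against defining markers: all 7 microglia and macrophage markers were at 1 RPKM or more in all 6 BV2 libraries, with a summed level of 442 to 827 RPKM. Of 6 homeostatic microglia markers 1 passed 1 RPKM in all, and Siglech was listed at 0 in each. Neuron, astrocyte, oligodendrocyte, endothelial, fibroblast and lymphocyte markers summed to less than 1 RPKM in every BV2 library, and granulocyte markers to between 0.376 and 3.94 RPKM, mostly S100a8, at up to 3.84 RPKM. Implied depth, read from the smallest steps of the values, was 10.8 M to 14.0 M reads per BV2 library and 28.8 M to 47.8 M per primary library.

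Domain genes had higher RNA levels than genes with narrower peaks in every library. At 24 h the median of 740 domain genes with transcripts of 200 bases or more was 5.08 RPKM with the mutant fragment, 6.74 with the wild-type fragment and 6.91 with the empty vector. At the second time it was 6.19, 6.59 and 6.25 RPKM. Genes in narrower peaks had medians of 2.96, 2.99 and 3.02 RPKM at 24 h. Among them, genes at peaks of 3 to 5 kb had 4.60, 4.64 and 4.69 RPKM. Genes at domains of 5 to 7.5 kb had 4.58, 5.81 and 6.43 RPKM, so with the mutant fragment these neighbouring classes were level at 24 h. In bulk RNA, fewer cells of a type and less RNA per cell cannot be told apart.

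**Figure D3:**
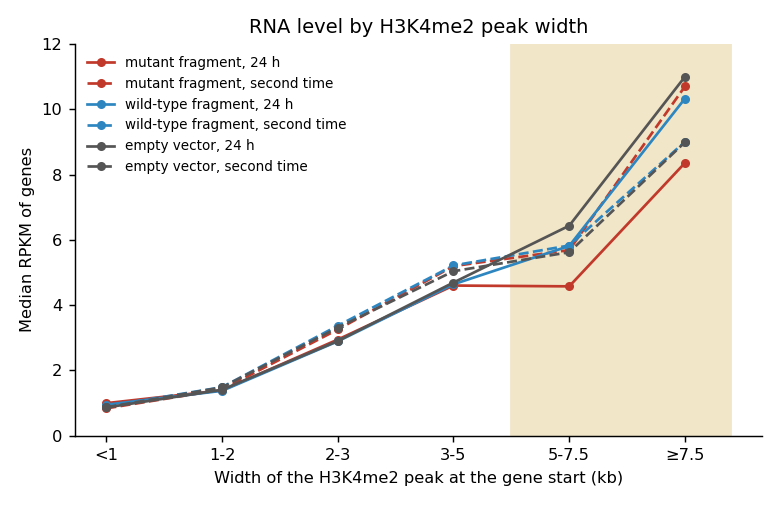
Median RPKM of genes by the width of the empty-vector H3K4me2 peak at their start (kb), for the 6 BV2 RNA libraries, solid at 24 h and dashed at the second time, with the broad domains shaded. Levels climb with width in all 6 libraries up to 5 kb, and in the widest class they lie between 8.36 RPKM (mutant fragment, 24 h) and 11 RPKM (empty vector, 24 h).

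The 10 domain genes with the highest levels were Fth1, Spp1, Ctsk, Gpnmb, Ctsd, Apoe, Vim, B2m, Rpl35 and Rps18, and their differences between constructs did not all run one way. Fth1, the heavy chain of the iron store ferritin, had 5647 and 4514 RPKM (24 h, then the second time) with the mutant fragment, 3062 and 2557 RPKM with the wild-type fragment and 2749 and 2295 RPKM with the empty vector. Ctsk, cathepsin K, had 1243 and 1418 RPKM with the mutant fragment, 991 and 940 RPKM with the wild-type fragment and 913 and 886 RPKM with the empty vector. Gpnmb, a glycoprotein of macrophages under lysosomal stress, had 1274 and 1073 RPKM with the mutant fragment, 1061 and 575 RPKM with the wild-type fragment and 998 and 514 RPKM with the empty vector. Levels of these 3 genes were higher in both mutant-fragment libraries than in any library of the other constructs, although Gpnmb at the second time lay only just above the 24 h level of the wild-type fragment. Spp1, the secreted glycoprotein osteopontin, stood the other way, with 1784 and 1495 RPKM with the mutant fragment, 2671 and 2318 RPKM with the wild-type fragment and 2377 and 2158 RPKM with the empty vector. Vim, the intermediate filament vimentin, had 436 and 658 RPKM with the mutant fragment, 1197 and 537 RPKM with the wild-type fragment and 1251 and 521 RPKM with the empty vector. Apoe, an apolipoprotein, had 615 and 574 RPKM with the mutant fragment, 1104 and 524 RPKM with the wild-type fragment and 1098 and 536 RPKM with the empty vector. Vim and Apoe were thus lower at 24 h and higher at the second time. None of the 10 passed the test between constructs, and reads shared with Fth1 pseudogenes make its level uncertain.

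RNA was tested between constructs with limma on log2(RPKM + 1), with construct and time as terms. Genes with 1 RPKM or more in at least 2 of the 6 BV2 libraries were fitted, 10350 in all, and the error is the difference of the construct effect between the 2 times, with 2 residual degrees of freedom. Of the 766 domain genes 692 passed the filter and 74 did not. A gene lost with the mutant fragment can pass through the other libraries alone, so counts over the genes that passed describe them and support nothing further.

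No domain gene passed an adjusted p of 0.05 (Benjamini-Hochberg over all genes) between the mutant fragment and the empty vector. Over all genes 9 were called higher, 0.087% of those tested, and 0% were called lower. At an unadjusted p under 0.05, 54 domain genes were higher (7.8%, against 7.5% of all genes) and 90 were lower (13%, against 7.81% of all genes). Between the mutant and the wild-type fragment no domain gene passed either, where 0.0676% of all genes were called higher and 0% lower. There 51 domain genes were higher (7.37%, against 7.46% of all genes) and 83 lower (12%, against 8.43%) at an unadjusted p under 0.05. Both comparisons use the same mutant-fragment libraries. Between the wild-type fragment and the empty vector 0% of all genes were called in each direction, and the lowest adjusted p was 1. At an unadjusted p under 0.05, 2 domain genes were higher and 1 lower in that comparison, against 0.348% and 0.29% of all genes, and by size alone no domain gene differed 2-fold at either time, against 0.01% of all genes in each direction at 24 h and 0% at the second time. The absence of calls against the empty vector depended on which libraries were in the fit. When 1 mutant-fragment library, of either time, was left out, domain genes were called in both directions. Without either wild-type-fragment library 9 were higher and 20 lower (1.30% and 2.89%, against 1.25% and 0.966% of all genes). Without the empty-vector library of 24 h or that of the second time no domain gene was called in this comparison, against 16 and 5 of all genes. A fit with a single mutant-fragment library takes that library to vary like the others.

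The domain gene nearest to the threshold was Tlr2, the receptor for bacterial lipoproteins. It had 22.2 and 30.2 RPKM with the mutant fragment, against 2.88 and 5.93 RPKM with the wild-type fragment and 3.57 and 4.91 RPKM with the empty vector. The mutant-fragment libraries did not overlap the others, and the log2 difference from the empty vector was 2.37 (SE 0.19, limma adjusted p = 0.0524). With the longest transcript standing for each gene its limma adjusted p was 0.0468, and between 0.0689 and 0.299 with another pseudocount, no filter, quantile normalization or no time term. Its domain of 6791 bp was overlapped by peaks of 7434 bp with the mutant fragment and 6962 bp with the wild-type fragment.

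Other domain genes that stood higher with the mutant fragment at both times encode regulators of transcription, RNA decay and autophagy. Id2, an inhibitor of helix-loop-helix factors, had 79.2 and 29.2 RPKM with the mutant fragment, against 8.99 and 7.85 RPKM with the wild-type fragment and 6.67 and 7.27 RPKM with the empty vector (log2 difference from the empty vector 2.63, SE 0.40, limma adjusted p = 0.136). Zc3h12a, a nuclease that degrades cytokine messages, had 4.87 and 5.65 RPKM with the mutant fragment, against 1.66 and 0.790 RPKM with the wild-type fragment and 1.19 and 0.970 RPKM with the empty vector (1.59, SE 0.23, limma adjusted p = 0.128). The groups did not overlap for either gene.

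Sqstm1, the autophagy receptor p62, had 342 and 56.7 RPKM with the mutant fragment, against 42.5 and 33.2 RPKM with the wild-type fragment and 41.3 and 32.8 RPKM with the empty vector (log2 difference from the empty vector 1.90, SE 0.61, limma adjusted p = 0.275). Its mutant-fragment value at 24 h was far above that at the second time. Rnf149, a ubiquitin ligase, had the same order of times, with 133 and 48.2 RPKM with the mutant fragment, against 25.6 and 26.4 RPKM with the wild-type fragment and 19.5 and 25.5 RPKM with the empty vector. Lrrc25, a leucine-rich repeat protein of myeloid cells, was higher at the second time instead, with 14.4 and 28.1 RPKM with the mutant fragment, against 3.95 and 3.36 RPKM with the wild-type fragment and 4.11 and 4.22 RPKM with the empty vector.

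Domain genes that stood lower with the mutant fragment at both times included a lipid transporter and signalling genes. Abcd2, a peroxisomal transporter of very long chain fatty acids, had 0.514 and 0.756 RPKM with the mutant fragment, against 17.8 and 7.37 RPKM with the wild-type fragment and 17.5 and 6.96 RPKM with the empty vector (log2 difference from the empty vector -2.90, SE 0.40, limma adjusted p = 0.124). Hspb7, a small heat shock protein, had 0.105 and 0.437 RPKM with the mutant fragment, against 8.05 and 3.40 RPKM with the wild-type fragment and 10.9 and 3.23 RPKM with the empty vector (-2.50, SE 0.47, limma adjusted p = 0.175). For both genes every mutant-fragment value lay below every other value.

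Rasgrp3, an activator of Ras and Rap, had 2.58 and 7.78 RPKM with the mutant fragment, against 33.3 and 20.7 RPKM with the wild-type fragment and 31.1 and 18.6 RPKM with the empty vector. Cytip, which binds cytohesins at sites of adhesion, had 0.305 and 0.876 RPKM with the mutant fragment, against 5.20 and 3.74 RPKM with the wild-type fragment and 5.89 and 4.13 RPKM with the empty vector. Angptl2, a secreted angiopoietin-like protein, had 2.16 and 5.89 RPKM with the mutant fragment, against 18.0 and 12.7 RPKM with the wild-type fragment and 19.4 and 13.1 RPKM with the empty vector. The transcript 2310002L09Rik followed, with 0.454 and 2.85 RPKM with the mutant fragment, against 14.5 and 10.5 RPKM with the wild-type fragment and 13.2 and 9.97 RPKM with the empty vector. In the 4 genes the mutant-fragment value was lower at 24 h than at the second time, while the other constructs ran the other way.

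**Figure D4:**
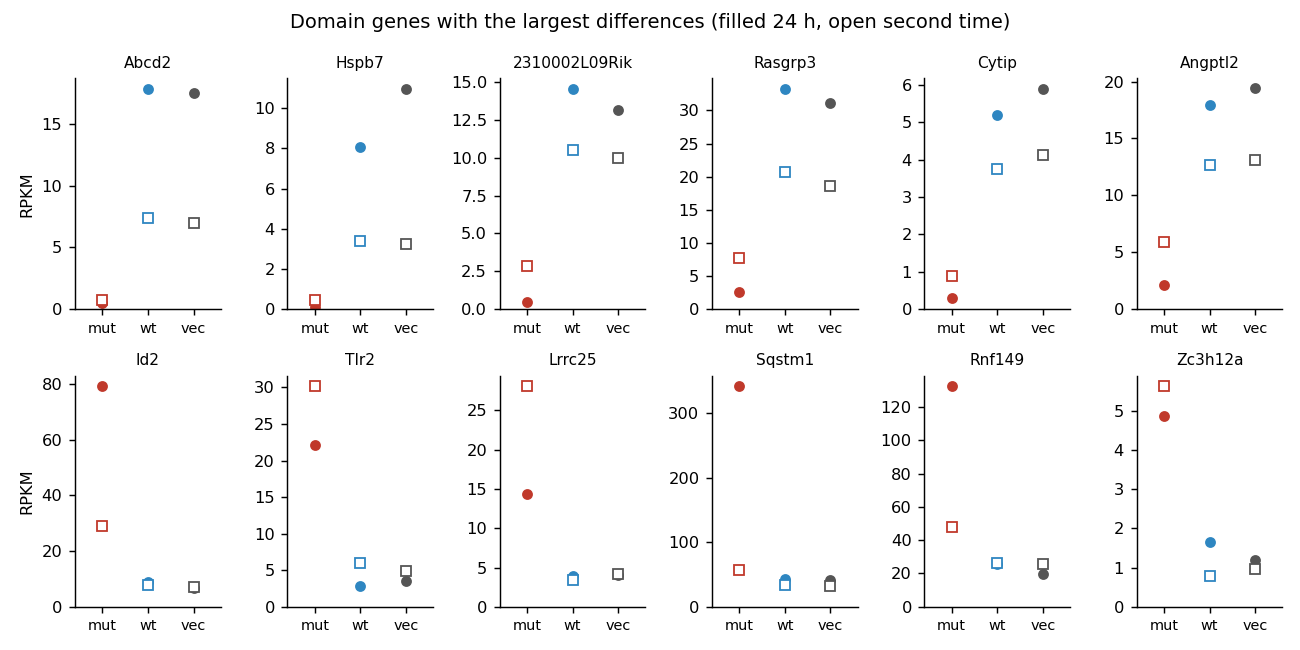
RPKM of the 6 domain genes with the most negative (top) and the most positive (bottom) log2 difference between the mutant fragment and the empty vector, same sign at both times. Filled points are 24 h and open squares the second time, for mutant-fragment (mut), wild-type-fragment (wt) and empty-vector (vec) cells, 1 library per point. Mutant-fragment points lie on 1 side of all others in each panel, and in Sqstm1 the distance rests mainly on the 24 h library, at 342 RPKM.

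By size alone, with a 2-fold difference taken on the log2(RPKM + 1) scale here and below, 16 of 677 tested domain genes (transcripts from 200 bases) were 2-fold or more lower with the mutant fragment than with the empty vector at both times (2.36%, against 0.592% of all 9961 such genes), and 6 were 2-fold or more higher (0.886%, against 0.893%). Against the wild-type fragment 18 were lower (2.66%, against 0.673%) and 6 higher (0.886%, against 0.843%) by the same measure. Beyond those named, the lower ones include Itgav, an integrin subunit, Gpr183, an oxysterol receptor, F7, coagulation factor VII, Etv1, Plod2, St8sia4, Nat6, Mitf and Kcnn4, and the higher ones Rhoc, a small GTPase, and Slfn2. Itgav had 3.57 and 3.16 RPKM with the mutant fragment, against 13.9 and 11.4 RPKM with the wild-type fragment and 12.6 and 9.41 RPKM with the empty vector (log2 difference from the empty vector -1.45, SE 0.17, limma adjusted p = 0.104). Mitf had 1.83 and 1.61 RPKM with the mutant fragment, against 5.95 and 4.87 RPKM with the wild-type fragment and 5.75 and 4.69 RPKM with the empty vector (-1.19, SE 0.16, limma adjusted p = 0.124). The Mitf values are of a transcript that starts outside the domain, and at the 2 times they were close within each construct.

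Kcnn4, whose domain was among the least covered with the mutant fragment, was in this group. Kcnn4 had 0.300 and 1.53 RPKM with the mutant fragment, against 3.95 and 5.00 RPKM with the wild-type fragment and 4.59 and 5.52 RPKM with the empty vector. Its RNA was thus low where little of its domain was marked, in a single ChIP library. Across the 677 genes in 594 domains, the log2 ratio of widths between the mutant and the wild-type fragment followed the RNA difference of the same pair only loosely, at Pearson's r = 0.098 and Spearman's rho = 0.151 for 24 h. These points share libraries and some share a domain, so the values are a description. Of 75 genes whose domain was at least 1.5-fold narrower with the mutant fragment, 13.3% were at least 2-fold lower than with the wild-type fragment at 24 h, against 19.1% of 518 genes with widths within 1.5-fold and 7.14% of 84 genes whose domain was at least 1.5-fold wider. The median log2 differences were -0.25, -0.28 and -0.021 in these 3 classes, which were made after the values were seen.

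The myeloid factor genes gave no call. Klf2 had 0.684 and 1.44 RPKM with the mutant fragment, against 5.24 and 2.53 RPKM with the wild-type fragment and 4.32 and 2.68 RPKM with the empty vector (log2 difference from the empty vector -1.13, SE 0.36, limma adjusted p = 0.275). Irf8 had 8.38 and 13.6 RPKM with the mutant fragment, against 14.5 and 14.7 RPKM with the wild-type fragment and 16.2 and 13.8 RPKM with the empty vector. Irf8 was lower at 24 h only and level with the other constructs at the second time.

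Lyl1 had 7.22 and 11.6 RPKM with the mutant fragment, against 15.4 and 14.0 RPKM with the wild-type fragment and 18.9 and 14.1 RPKM with the empty vector. Irf5 had 8.36 and 20.5 RPKM with the mutant fragment, against 11.3 and 9.78 RPKM with the wild-type fragment and 12.2 and 13 RPKM with the empty vector, with opposite signs at the 2 times. Among the 10 factors, 5 were below 0 and 2 above 0 at both times, with a median log2 difference of -0.37, against 14 and 9 of the 35 tested on the whole list and a median of -0.16. For Malat1 the values were 380 and 156 RPKM with the mutant fragment, against 346 and 160 RPKM with the wild-type fragment and 301 and 172 RPKM with the empty vector, so the gene of the widest domain moved less between constructs than between times.

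Split by time, domain genes stood lower with the mutant fragment at 24 h and not at the second time. This split was chosen after the values had been seen and rests on 1 library per construct and time, so it has no test. At 24 h, 131 of 677 domain genes (19.4%) were at least 2-fold lower than with the empty vector, against 5.75% of all genes, and 25 (3.69%) at least 2-fold higher, against 4.87%. At the second time 22 (3.25%) were at least 2-fold lower, against 2.74%, and 28 (4.14%) higher, against 2.23%. The median log2 difference of the 692 tested domain genes was -0.29 at 24 h, with 0.056 for the second time, against 0.040 and -0.018 over all tested genes. With a pseudocount of 5 the share lower than with the empty vector at 24 h was 7.98%, against 1.92% of all genes. Compared with the wild-type fragment, 115 (17.0%) were at least 2-fold lower at 24 h, against 5.22% of all genes, and 20 (2.95%) higher, against 4.52%; at the second time 24 (3.55%) were lower, against 3% of all genes, and 19 (2.81%) higher, against 1.86%.

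The share lower at 24 h was level for starts with no peak or a peak under 3 kb and higher in each wider class above that, in classes of width and of RNA level made after the values were seen. It was 3.88% for genes without a peak, 3.43% for peaks under 1 kb, 4.43% for 1 to 2 kb, 4.04% for 2 to 3 kb and 7.90% for 3 to 5 kb. Among domains it was 17.8% for those of 5 to 7.5 kb and 24.2% for those of 7.5 kb or wider. Domains chosen by the mutant-fragment widths gave 16.3% of 546 genes, and those chosen by the wild-type-fragment widths 19.7% of 524. The share lower was thus high whichever library chose the domains. Of the peaks chosen by mutant-fragment and wild-type-fragment widths, 74.1% and 81.5% overlapped a broad empty-vector peak. The RNA libraries were also the same, so these choices are not separate checks. The share at least 2-fold higher at 24 h was 6.96% and 5.73% with these choices, against 3.69% with the empty-vector widths. It lay below the 4.87% of all genes only with the empty-vector choice. By RNA level, genes were split at control levels under 3, 3 to 10, 10 to 30, and 30 RPKM or more. The share lower at 24 h was 12.1%, 20.0%, 21.0% and 24.8% of domain genes, against 3.25%, 4.45%, 6.92% and 7.28% of other genes.

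**Figure D5:**
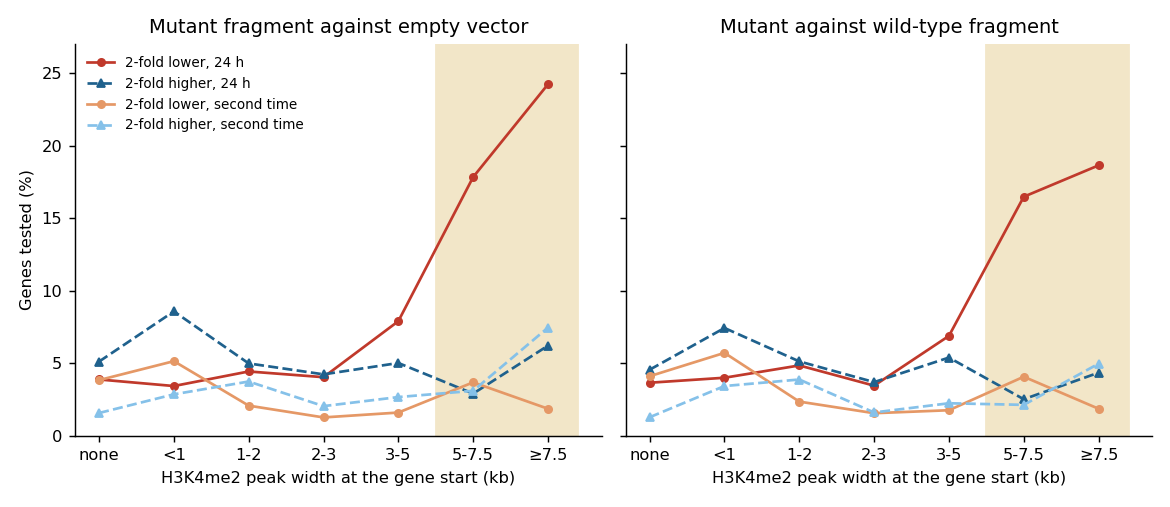
Percent of tested genes at least 2-fold lower (circles) or higher (triangles) with the mutant fragment than with the empty vector (left) or the wild-type fragment (right), by width of the empty-vector H3K4me2 peak at the gene start (kb), at 24 h and at the second time, 1 library per construct and time. The share lower at 24 h reaches 24.2% and 18.6% in the widest class, while the other lines stay below 9%, and the 2 panels share the mutant-fragment libraries.

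Beyond those already named, the domain genes with the most negative 24 h differences were Gsn, Rnase4, Adssl1, Ang, S100a4, Hyal1 and Plau. Gsn, gelsolin, which severs actin filaments, had 21.5 and 46.9 RPKM with the mutant fragment, against 144 and 51.8 RPKM with the wild-type fragment and 165 and 49.9 RPKM with the empty vector. Rnase4, a secreted ribonuclease, had 2.98 and 10.5 RPKM with the mutant fragment, against 24.7 and 13.2 RPKM with the wild-type fragment and 28.3 and 11.6 RPKM with the empty vector, and its neighbour Ang shares that pattern. S100a4, a calcium-binding protein of motile cells, had 26.5 and 149 RPKM with the mutant fragment, against 148 and 155 RPKM with the wild-type fragment and 182 and 188 RPKM with the empty vector. At the second time Gsn, Rnase4 and S100a4 stood closer to the other constructs than at 24 h. Adssl1, an enzyme of purine nucleotide synthesis, had 7.51 and 9.47 RPKM with the mutant fragment, against 59.0 and 23.4 RPKM with the wild-type fragment and 60.9 and 16.8 RPKM with the empty vector. Hyal1, a lysosomal hyaluronidase, had 2.32 and 4.37 RPKM with the mutant fragment, against 16.1 and 8.41 RPKM with the wild-type fragment and 20.2 and 8.29 RPKM with the empty vector. Both of these stayed lower at the second time, while Plau, the plasminogen activator urokinase, had 7.66 and 23.7 RPKM with the mutant fragment, against 61.8 and 14.5 RPKM with the wild-type fragment and 53.3 and 14.7 RPKM with the empty vector, and so was higher at the second time.

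Of the 131 domain genes lower at 24 h, 16 were also at least 2-fold lower at the second time (12.2%, against 10.3% of the 573 such genes among all), 93 were below 0 (71.0%, against 71.7%) and 1 was at least 2-fold higher, against 3 of the 573. The median log2 difference between the second time and 24 h in these genes was 0.68 with the mutant fragment, -0.36 with the wild-type fragment and -0.49 with the empty vector. For the other 546 domain genes it was 0.11, -0.022 and -0.097. Since the 24 h values chose the 131 genes, these medians are a description, and in the control constructs too their level differed between the times, being lower at the second time than at 24 h.

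In primary cells few genes differed 2-fold between genotypes, whether or not they start in a domain. Of 588 domain genes at 1 RPKM or more in microglia, 1 was at least 2-fold lower and 1 at least 2-fold higher in Q175/175 than in Q7/7 mice (0.170% each, against 0.364% and 0.0962% of all genes), with a median log2 difference of -0.075, against -0.081 over all 9354 genes. In macrophages 4 of 637 were lower and 7 higher (0.628% and 1.10%, against 0.385% and 0.770% of all genes), with a median of 0.19, against 0.20 over all 9867. Each genotype has 1 library, so there is no test. Klf2 differed more between cell types than between genotypes, with 119 and 8.51 RPKM in Q175/175 microglia and macrophages and 81.4 and 10.1 RPKM in Q7/7 microglia and macrophages.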

How the data were processed

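RNA came as 1 table of RPKM values deposited by the authors for 31641 RefSeq transcripts (23953 gene symbols) in 10 libraries, and ChIP-seq as 12 peak lists. The submitters' processing notes name mm9, Bowtie and HOMER for the ChIP samples and edgeR, HOMER and STAR 2.0.3e for the RNA samples. Per the file headers, each library had its own peak call, at 4-fold enrichment relative to an input that carries the name of another macrophage source, H3K4me2 with variable widths and a minimum distance of 1000 bp between peaks, the factors with a fixed width. The score deposited by the authors is 1 for every peak and was not used. H3K4me2 libraries had 5.26 M to 5.39 M tags per the file headers. Read depth behind each RPKM value is known only from the steps of the values, which were whole multiples of 1 read in 100% of low BV2 values within 0.1 read.

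From these files, overlaps were computed with Python 3.11.15, and a factor site was counted where it overlapped an H3K4me2 peak by at least 1 bp. The transcript with the highest mean RPKM stood for each symbol, and it starts in the domain for 736 of the 766 domain genes. limma 3.58.1 (R 4.3.3) was fitted on log2(RPKM + 1), a scale that understates changes of low genes, and was tested on simulated data. Time is the block that pairs libraries, per the labels. Genes were named by rule: those of the 12 widest domains, myeloid factors in domains, the 6 largest differences in each direction with the same sign at both times, the 10 most abundant, and the domains least covered with the mutant fragment or richest in PU.1; others, including the genes lowest at 24 h, were chosen after their values were seen. The domains and gene lists were chosen with earlier results of these data known. Alternatives were another pseudocount (5 and 0.1), no filter, quantile normalization, no time term, the longest transcript, other domain widths (4000 and 7500 bp), other choosing libraries and each library left out. Some genes that the rule names are not reported here.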

Additional observations from a re-analysis of the deposited data

Results flagged for a closer look

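The median log2 difference of the domain genes between the mutant fragment and the empty vector had opposite signs at the 2 times, -0.29 at 24 h and 0.056 at the second. Between the mutant and the wild-type fragment the 24 h value was -0.24 and the other 0.020. Each value rests on 1 library per construct and time, both comparisons use the same mutant-fragment libraries, and the difference between times was not tested.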

How the results depend on the processing

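The fit with time as the replicate block called 9 genes between the mutant fragment and the empty vector, and without the block it called 3, against 7 and 4 between the mutant and the wild-type fragment. Called genes for these 2 comparisons numbered 0 and 0 with a pseudocount of 5 or no filter, and 21 and 19 with a pseudocount of 0.1. The longest transcript gave 17 in the first comparison, 1 of them a domain gene. With 1 library left out they ranged from 5 to 3290 and from 65 to 3315, and between the wild-type fragment and the empty vector from 0 to 42. Both maxima came with the second-time library of mutant-fragment cells left out, and a fit without either mutant-fragment library assumes that the lone one varies like the other groups. The median log2 difference of domain genes was -0.12 and -0.091 for the mutant fragment against the empty vector and the wild-type fragment. Leaving out 1 library moved it between -0.28 and 0.029 and between -0.27 and 0.042, and it was above 0 only without the mutant-fragment library of 24 h. For the wild-type fragment against the empty vector it lay between -0.13 and 0.13. Domains numbered 2225 at 4000 bp and 235 at 7500 bp, covered over 86.3% and 88.1% with the mutant fragment and 88.6% and 90.3% with the wild-type fragment. At 7500 bp, sites per 10 kb were 3.29 for PU.1 with the empty vector, 1.17, 1.92 and 1.16 for C/EBPα (mutant fragment, wild-type fragment, empty vector) and 3.29 for C/EBPβ with the wild-type fragment, which was 3.77 at 4000 bp. The share of domain genes at least 2-fold lower at 24 h, under alternatives chosen after seeing the data, was 16.3% with mutant-fragment widths, 15.2% at 4000 bp, 24.2% at 7500 bp, 7.98% with a pseudocount of 5 and 23.8% with a pseudocount of 0.1. The cause of these shifts was not tested. One ChIP library per construct leaves the peak counts without a replicate check, and the part of depth in them was not tested.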

Other observations

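Chromosome 2 held 155 of the 1111 domains (14.0%), against 8.68% of narrower H3K4me2 peaks and 8.46% of gene symbols. The excess was there in each library, with 125 broad peaks on chromosome 2 with the mutant fragment, 118 with the wild-type fragment and 155 with the empty vector. Chromosome X held 9 domains (0.810%), against 2.24% of narrower peaks. Copy number of BV2 chromosomes was not tested here.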
